A study of Mus musculus with 20 samples.

Results

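The change of the hepatic DNA methylome between birth and weaning was measured in control offspring, by comparing the 5 liver libraries labelled Con-d21 with the 5 labelled Con-d0. These are 10 of the 20 reduced representation bisulfite sequencing (RRBS) libraries of a study of adverse maternal environments (AME), in which MspI fragments of liver DNA were converted with bisulfite, so that a read reports each of its CpGs as methylated or not. All animals were male wild-type C57BL/6J mice. The Con dams ate a control diet before mating, through pregnancy and through lactation and were not stressed. The d0 pups were taken by C-section at term, whereas the d21 pups were born naturally, stayed with their dams and were fasted for 5 h before their livers were taken, so that age cannot be told apart from mode of delivery, suckling and fasting. Each age drew on 5 litters, from separate dams. The offspring used for comparison, AME-d0 and AME-d21, had dams given a Western diet and, late in gestation, environmental stress. Of 4204508 autosomal CpGs covered anywhere in the series, the 745073 with at least 10 reads in all 10 control libraries were used, singly, in 194517 bins of 200 bp, and over the promoters of 16787 of the 51229 annotated autosomal genes. A promoter is here the 1 kb before and the 1 kb after a transcription start site (TSS), provided that 3 or more such CpGs lie in it.

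Total counts were 28451406 to 45769589 reads over CpGs per Con-d0 library and 29189314 to 37692136 per Con-d21 library. Pearson correlations of bin methylation were 0.953 to 0.970 within Con-d0, 0.973 to 0.978 within Con-d21 and 0.925 to 0.945 between the ages (across bins, which are not independent). Con-d0 replicate 5 stood apart: its mean methylation over the tested CpGs was 37.6%, against 36.05% to 36.24% in the other 4 newborn livers, toward the d21 livers at 40.5% to 40.9%. Counts are therefore also given without it. AME-d21 replicate 4, although labelled male, held 2.88 X-chromosomal for every 100 autosomal reads, where the other 4 libraries of its group held 1.53 to 1.55. AME-d0 replicates 1 and 3 held 1.45 and 1.40, where the other 3 held 1.48 to 1.501.

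In mammals, cytosines followed by guanine are methylated by default, and CpG-dense islands at many promoters are kept free of methylation. Methylation of a promoter or enhancer usually goes with low use of that element in the cell type concerned, and binding of tissue transcription factors is commonly followed by local loss of methylation. The perinatal liver is a blood-forming organ that hands this task to the bone marrow while its hepatocytes take up adult tasks such as gluconeogenesis, bile acid synthesis and secretion of clotting factors. Bulk liver DNA holds the genomes of all these cells, so a change of methylation within cells and a change in the share of cell types cannot be told apart.

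Stretches of 5 promoter windows are shown because they span the kinds of change described below. Shown are a CpG-dense stretch unmethylated at birth and a sparse one at the outermost annotated start of a sterol transporter gene. The others are of a leukocyte promoter and of a pair of promoters that lost methylation. All are RefSeq GRCm38 sequence on the strand of the gene, 5′ to 3′, and capitals mark the CpGs that were tested. Fut11, a fucosyltransferase gene, is shown from 206 to 505 bases after its TSS, in coding sequence (chr14:20695174-20695473, plus strand). Abcg8, which encodes a subunit of the canalicular sterol exporter, is shown from position -137 to 15 from its TSS (chr17:84676165-84676317, plus strand). Itgal, the integrin alpha L subunit of leukocytes, is shown from position -149 to 29 from its TSS (chr7:127296111-127296289, plus strand). Fgb, the fibrinogen beta chain secreted by hepatocytes, is shown from 72 to 192 bases after its TSS (chr3:83049671-83049791, minus strand). Tnfsf13, the cytokine APRIL, is shown from position -195 to -138 from its TSS (chr11:69685922-69685979, minus strand).
Fut11: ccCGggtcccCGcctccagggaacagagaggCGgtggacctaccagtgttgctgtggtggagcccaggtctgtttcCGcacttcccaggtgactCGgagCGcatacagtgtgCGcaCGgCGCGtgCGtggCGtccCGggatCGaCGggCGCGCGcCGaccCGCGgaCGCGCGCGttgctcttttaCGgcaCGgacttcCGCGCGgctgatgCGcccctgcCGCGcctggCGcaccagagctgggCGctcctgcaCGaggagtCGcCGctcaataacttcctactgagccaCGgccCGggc
Abcg8: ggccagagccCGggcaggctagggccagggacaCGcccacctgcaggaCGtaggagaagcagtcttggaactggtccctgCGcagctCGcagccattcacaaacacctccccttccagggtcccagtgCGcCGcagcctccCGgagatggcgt
Itgal: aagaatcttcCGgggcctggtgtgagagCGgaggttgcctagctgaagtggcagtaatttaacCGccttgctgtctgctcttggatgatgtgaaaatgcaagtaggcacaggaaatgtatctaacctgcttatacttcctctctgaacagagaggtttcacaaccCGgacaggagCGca
Fgb: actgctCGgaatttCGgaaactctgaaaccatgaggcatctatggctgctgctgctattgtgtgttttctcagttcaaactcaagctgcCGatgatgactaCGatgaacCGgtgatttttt
Tnfsf13: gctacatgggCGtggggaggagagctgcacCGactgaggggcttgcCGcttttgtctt
A further rise lay just downstream of miR-142, a microRNA of blood cells, within its promoter window but not over the microRNA itself, whose mature 3p arm (RefSeq, GRCm38.p6, chr11:87756903-87756925, plus strand) is shown with its seed, bases 2 to 8, in capitals.
miR-142a-3p: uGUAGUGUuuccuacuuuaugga

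Liver DNA was more methylated at d21 than at birth in each of 9 genomic classes. Over the tested CpGs the mean was 36.4% ± 0.674 (SD, n = 5) in Con-d0 and 40.7% ± 0.1205 in Con-d21. CpG islands, which hold 47.9% of the tested CpGs, moved least of the 9 classes given here, from 5.74% ± 0.0529 to 6.58% ± 0.0646. Shores, the 2 kb beside islands, went from 39.2% ± 0.716 to 44.2% ± 0.219, and CpGs outside both from 67.7% ± 1.32 to 75.5% ± 0.169. Exons went from 22.1% to 24.5%, introns from 41.2% to 46.2% and CpGs between genes from 48.9% to 54.7%. Repeats, read as the soft-masked bases of the genome, went from 69.7% ± 1.33 to 77.2% ± 0.186. In each of these 9 classes all 5 d21 livers lay above all 5 newborn livers (exact two-sided permutation test, p = 0.00794, the smallest that 5 against 5 can give, and 0.00794 after Benjamini-Hochberg adjustment over the 9). Without Con-d0 replicate 5 the rise over all tested CpGs was 4.597 percentage points in place of 4.298.

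**Figure D1:**
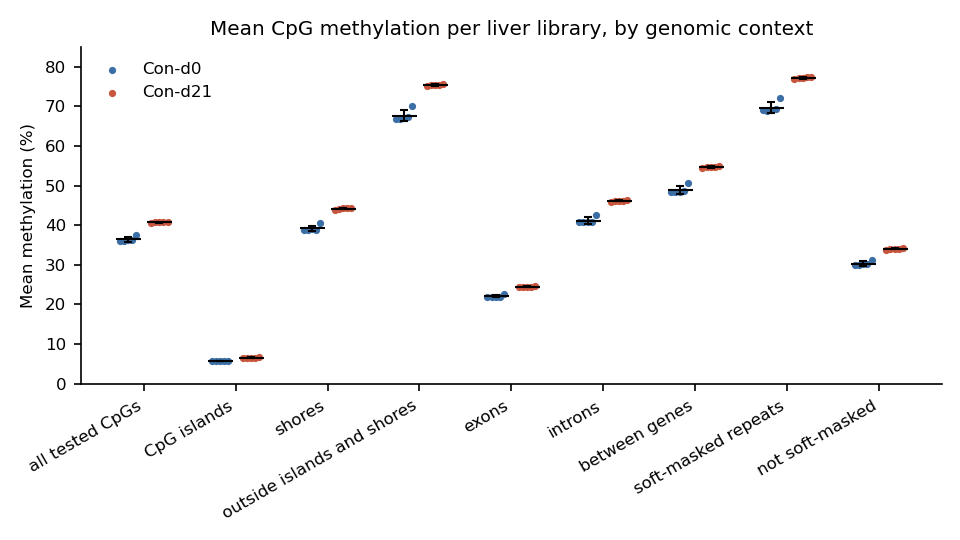
Mean methylation (%, vertical axis) of the tested CpGs in each of 9 genomic contexts (horizontal axis), 1 point per library (blue Con-d0, red Con-d21), with the mean as a bar and the SD over 5 livers as whiskers. Every d21 liver lies above every newborn liver, the islands moved from 5.74% to 6.58% and the CpGs outside islands and shores from 67.7% to 75.5%, and the highest newborn point is replicate 5.

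Single bins varied somewhat more among the newborn livers. The median SD of a bin over 5 livers was 5.07 percentage points in Con-d0 and 3.88 in Con-d21, and the SD was the higher at d0 in 59.4% of bins. Among bins between 20% and 80% at both ages, where the level bounds the spread less, the medians were 6.96 and 6.74 and 52.3% of bins had the higher SD at d0. Without Con-d0 replicate 5, an alternative added after seeing the data, the newborn median was 4.81 over all bins, with the higher SD at d0 in 56.6%, and 6.73 at the middle levels, with 50.05%. The library means of the other 4 newborn livers, 36.05% to 36.24%, lay no farther apart than those of the d21 livers.

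A differentially methylated cytosine (DMC) is here a CpG with an unadjusted p under 0.001 in a quasi-binomial model of its counts and a difference of at least 10 percentage points between group means. Of the tested CpGs, 21980 (2.95%) were higher at d21 and 6380 (0.856%) were lower. Rises made up 77.5% of the DMCs. The median change was 31.0 points among rising DMCs and -37.2 points among falling ones, so that losses were fewer and deeper. Without Con-d0 replicate 5, 16410 CpGs rose and 4567 fell, and the total of 28360 became 18772 without Con-d0 replicate 4, 18440 without Con-d21 replicate 3 and 18710 without Con-d21 replicate 4. By limma at the same thresholds, 62292 rose and 10283 fell. In the 200-bp bins, called by limma at an adjusted p under 0.05 and 10 points, 54467 rose (28%) and 6035 fell (3.1%). The median bin moved by 6.34 points, and 446 bins rose and 219 fell by 50 points or more. Without Con-d0 replicate 5 the bin counts were 57186 and 5679.

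Rises and falls were most frequent among bins that were partly methylated at birth. Of the 96268 bins between 20% and 80% at d0, 42.5% rose and 5.44% fell, and 48.0% had reached 80% or more at d21. Of the 49892 bins under 20% at d0, 93.3% stayed under 20% and 6.67% rose. Of the 48357 bins at 80% or more, 96.7% stayed there. These shares depend on the level at d0, which is also the start of the difference.

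DMCs came in runs. Each DMC was set beside the next tested CpG at a higher position. Where that CpG lay within 50 bp, it was also higher at d21 beside 99.2% of 13854 rising DMCs. It was also lower beside 98.7% of 3843 falling ones. CpGs so close can share reads. Beyond 200 and up to 1000 bp the shares were 84.7% of 353 and 58.1% of 136. Beside falling DMCs the median neighbour change was -34.3 points within 50 bp and -4.15 beyond 200 bp. Beside rising DMCs it was 25.7 and 12.4 points. The median bin rose by 6.34 points, so a neighbour can be higher at d21 whatever the DMC does. The shares beside rising and falling DMCs therefore have different baselines, and which of them faded over the shorter distance was not tested.

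By position, 0.678% of the 240492 CpGs within 500 bp of a TSS were rising DMCs and 0.210% falling ones. From 5 to 50 kb away the shares were 4.74% and 1.43% of 255815 CpGs. By local density, the shares were highest where 3 to 5 CpGs lay within 100 bp on either side, the CpG itself included, at 5.46% and 1.75%, and lowest at 21 or more CpGs, at 0.562% and 0.0896%. Repeats held 15.6% of the tested CpGs but 9.14% of the rising and 3.68% of the falling DMCs, although their mean level rose by 7.49 points. By chromosome the share of rising DMCs ran from 2.36% on chromosome 12 to 3.77% on chromosome 11, and that of falling DMCs from 0.585% on chromosome 14 to 1.12% on chromosome 5.

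At promoters, 3232 windows rose (19.3%) and 655 fell (3.9%) by limma at a Benjamini-Hochberg adjusted p under 0.05, and 12900 were not called. With a difference of at least 10 points as well, 1227 rose (7.31%) and 235 fell (1.4%). At 30 points or more, 146 rose and 68 fell. The median promoter moved by 0.0491 points, because 12518 of the 16787 windows lay under 10% at both ages. Of those nearly unmethylated windows 1369 rose and 370 fell by the adjusted p. Without Con-d0 replicate 5, 3072 promoters rose and 578 fell.

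CpG-poor promoters changed most often. Where the ratio of observed to expected CpGs was under 0.2, 49.3% of 519 promoters rose and 8.86% fell, and the median level went from 70.2% to 81.0%. Where it was 0.6 or more, 9.85% of 8144 rose and 2.79% fell, and the median was 0.127% at both ages. Of the promoters at 70% or more at birth, 53.6% of 2015 rose. Falls were most frequent at middle levels, with 12.1% of 755 promoters at 10 to 30% at birth and 12.1% of 1220 at 30 to 70%. Processed pseudogenes, which are retrocopies of mRNAs and mostly lie in methylated DNA, rose in 50.6% of 991 and fell in 1.51%. Protein-coding promoters rose in 14.2% of 11794 and fell in 3.87%, lincRNA promoters in 27.0% and 4.61% of 977, and miRNA gene windows in 33.6% and 5.69% of 422.

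**Figure D2:**
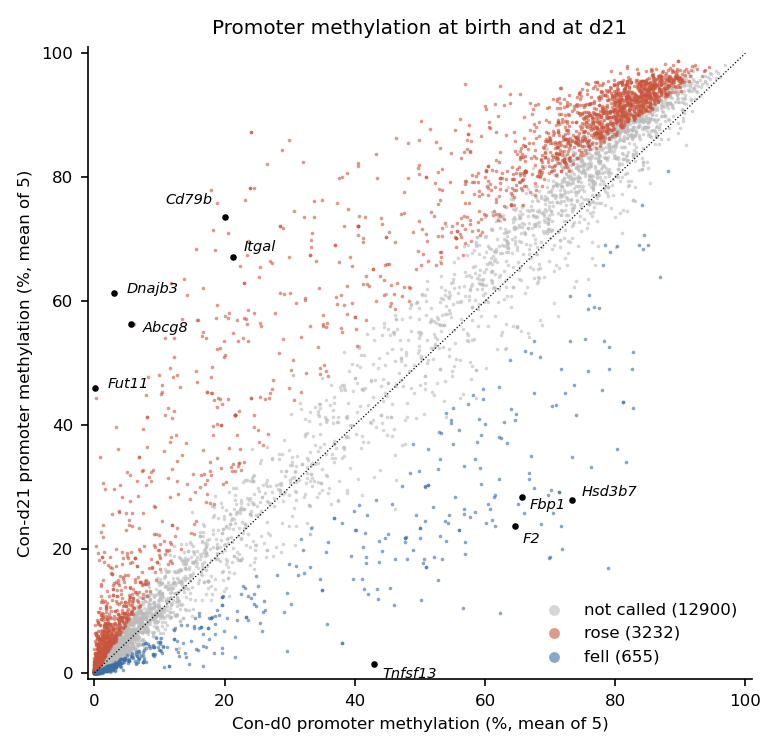
Mean promoter methylation (%) of 5 Con-d0 livers (horizontal axis) against that of 5 Con-d21 livers (vertical axis), 1 point per promoter, with 3232 called higher at d21 in red, 655 called lower in blue, 12900 not called in grey, and 9 named promoters in black. Most windows lie near 0 or near the top right, and the named promoters lie far from the dotted line of equal methylation.

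The largest protein-coding rises included genes of leukocytes, a sterol transporter and genes that had been almost free of methylation at birth. Of the 15 largest rises among promoters whose ages did not overlap (ages did not overlap in 18.6% of all tested promoters), Dok3, Cd79b, Dock2, Il12a, Nfam1, Gimap1, Nrros, Nckap1l and Itgal are known mainly from blood and immune cells, a grouping made after the genes were seen. Cd79b, a signalling chain of the B cell receptor, stood at 16.9%, 17.6%, 23.4%, 23.1% and 18.8% in the newborn livers and at 66.1%, 75.4%, 80.7%, 73.4% and 72.3% at d21 (3 CpGs, limma adjusted p = 3.29e-06). Ages that do not overlap were a condition of the choice, for this promoter and for the others of the 15. Dok3, an adaptor that restrains immune receptor signalling, went from 24.4% ± 4.92 to 78.2% ± 4.89 (n = 5). Dock2, a Rac activator of leukocytes, went from 18.3% ± 2.40 to 71.4% ± 5.03. Nckap1l, a leukocyte subunit of the WAVE actin complex, went from 23.5% ± 5.18 to 69.6% ± 5.37. For Itgal the newborn livers held 22.5%, 20.1%, 23.1%, 15.3% and 25.6% and the d21 livers 72.6%, 66.9%, 68.8%, 68.3% and 58.6% (10 CpGs, adjusted p = 9.69e-06). The lowest of the d21 livers was replicate 5. Il12a, the p35 subunit of interleukin-12, went from 15.6% ± 7.42 to 68.4% ± 5.64 over 14 CpGs.

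The remaining 6 included genes with other roles. Abcg8 stood at 6.86%, 5.71%, 2.10%, 6.53% and 6.49% at birth and at 58.4%, 45.8%, 61.6%, 53.1% and 62.6% at d21 (8 CpGs, adjusted p = 3.29e-06). Its product exports cholesterol into bile together with that of Abcg5, which is read from the opposite strand. The window is set at the outermost annotated start of Abcg8. On the opposite strand the stretch shown reads as coding sequence of Abcg5. These CpGs therefore need not belong to the promoter that liver uses, which was not tested. Dnajb3, a heat shock co-chaperone gene, stood at 1.43%, 3.85%, 3.70%, 4.15% and 1.79% and then at 48.1%, 56.2%, 70%, 70% and 62.6% (10 CpGs). These CpGs also lie within the annotated spans of Ugt1a genes, among them Ugt1a10 and Ugt1a2. Fut11 had the largest change of the 15 on the log2 scale of methylated to unmethylated reads, 9.68 ± 0.32 (SE, adjusted p = 2.86e-09). Over its 53 CpGs and at least 1671 reads per library, the newborn livers held 0%, 0.0463%, 0.0426%, 0.161% and 0.105%, and the d21 livers 49.4%, 40%, 47.7%, 47.2% and 45.3%. The newborn livers were thus close to free of methylation in this window and the d21 livers near the middle of the scale. AI467606 went from 17.9% ± 5.60 to 77.9% ± 4.01, Fxyd7, a regulator of the sodium pump, from 11.7% ± 2.17 to 62.9% ± 4.68, and Cbfa2t3, a transcriptional corepressor of blood cells, from 13.8% ± 3.94 to 63.6% ± 2.87.

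The 15 largest falls included genes of bile acid synthesis, clotting and gluconeogenesis. Hsd3b7, an enzyme of bile acid synthesis, stood at 70.7%, 85.7%, 73.5%, 65.7% and 71% at birth and at 14.1%, 29.8%, 35.0%, 21.2% and 39.1% at d21 (3 CpGs, adjusted p = 0.000202). Its d21 livers differed widely among themselves. That they lay below every newborn liver was a condition of the choice, as for the other falls of the 15. F2, which encodes prothrombin, stood at 71.2%, 58.4%, 65.0%, 60.5% and 67.6% and then at 24.7%, 22.5%, 25.9%, 24.0% and 21.1% (7 CpGs, adjusted p = 1.25e-05). The d21 livers lay closer together than the newborn ones. Fgb went from 61.6% ± 4.59 to 23.7% ± 10.9, with d21 livers from 9.54% in replicate 4 to 39.5% in replicate 5. Fbp1, fructose-1,6-bisphosphatase of gluconeogenesis, went from 65.6% ± 5.09 to 28.4% ± 6.11. Lcat, the plasma enzyme that esterifies cholesterol, went from 65.1% ± 6.51 to 27.2% ± 9.61. Slc23a1, a vitamin C transporter, went from 70.4% ± 3.30 to 25.8% ± 6.75.

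Tnfsf13 came nearest to 0 of the 15 falls. It stood at 57.4%, 49.2%, 40%, 32.1% and 35.8% at birth and at 0%, 0%, 3.33%, 0.980% and 3.03% at d21 (3 CpGs, 45 to 111 reads per library, adjusted p = 1.25e-05). Newborn livers thus spread widely and d21 livers were near 0. Plekhs1 went from 50.2% ± 1.12 to 11.7% ± 3.18, and its newborn livers lay close together. Fpgs, which adds glutamates to folate, went from 73.4% ± 1.66 to 34.8% ± 4.86. Acsm3, a medium-chain acyl-CoA synthetase, went from 52.8% ± 10.5 to 14.9% ± 3.74. Rbp7, a retinol-binding protein, went from 67.5% ± 4.31 to 29.8% ± 3.04. Tstd1, Eif4ebp3, Gm42417 and Olfml1 complete the 15, with falls of 36.3 to 41.0 points.

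**Figure D3:**
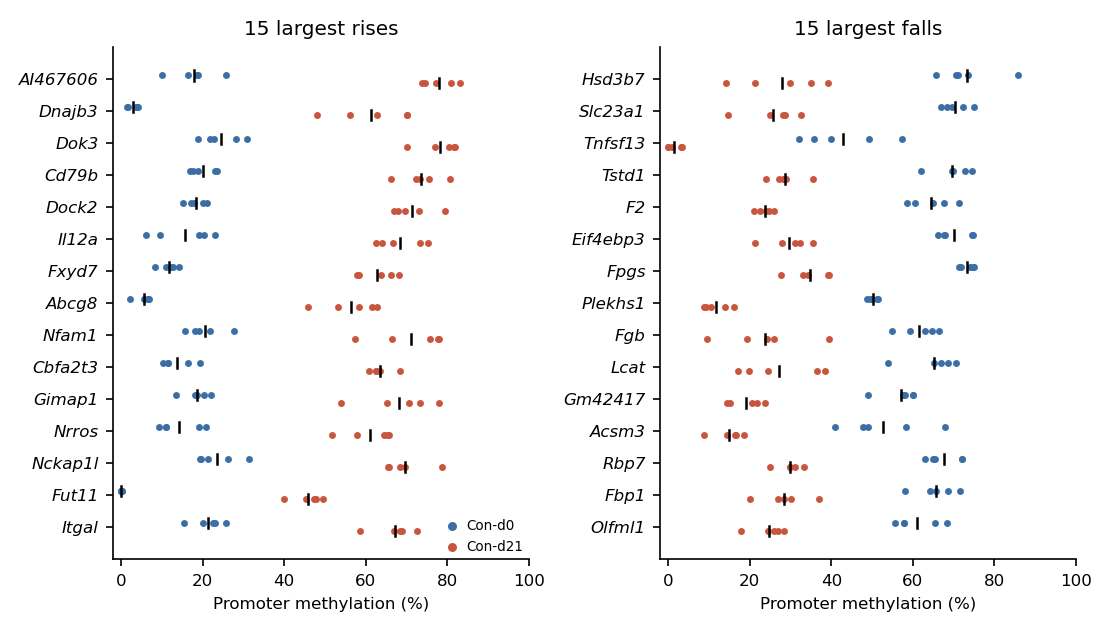
Promoter methylation (%, horizontal axis) of the 15 largest rises (left) and 15 largest falls (right) among protein-coding promoters whose ages did not overlap, 1 point per liver (blue Con-d0, red Con-d21), with the group mean as a black bar. The colours are separate in every row because the promoters were chosen so, and Fut11 starts at 0.071% and Tnfsf13 ends at 1.47%.

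Within these windows single CpGs moved in the same direction. Most of the windows were chosen for the change summed over these same CpGs, and CpGs so close can share reads. All 8 tested CpGs of Abcg8 were rising DMCs, and their newborn means ran from 1.41% to 10.5% and their d21 means from 35.0% to 69.0%. All 10 CpGs of Itgal rose, from between 11.6% and 28.0% to between 51.7% and 81.6%. The stretch of Itgal shown above holds 1 match to the PU.1 motif GAGGAAGT, on the reverse strand, a motif held by 1.21% of tested bins outside islands and shores. In Fut11 the newborn means of the 53 CpGs were 0% to 0.734% and the d21 means 5.67% to 67.03%, so the gain was uneven along the window. Its CpGs at 208, 366 and 406 bases after the TSS were not called DMCs. At Fgb the 3 CpGs at 162, 174 and 182 bases after the TSS stood at 71.2% to 72.3% in newborn livers and the 4 nearer the TSS at 51.5% to 60.3%, while all 7 stood at 20.4% to 27.0% at d21. At Plekhs1 the 5 CpGs went from 35.0% to 63.5% down to 5.30% to 18.3%. The 3 CpGs of Tnfsf13, at positions -148, -164 and -184 from the TSS, went from 55.6%, 34.3% and 38.7% to 1.497%, 0.909% and 2%. Mir142 stood at 21.1%, 17.6%, 28.6%, 22.4% and 29.5% at birth and at 81.7%, 76.5%, 72.0%, 84.3% and 76.7% at d21, over 5 CpGs that lie 350 to 488 bases after its TSS.

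**Figure D4:**
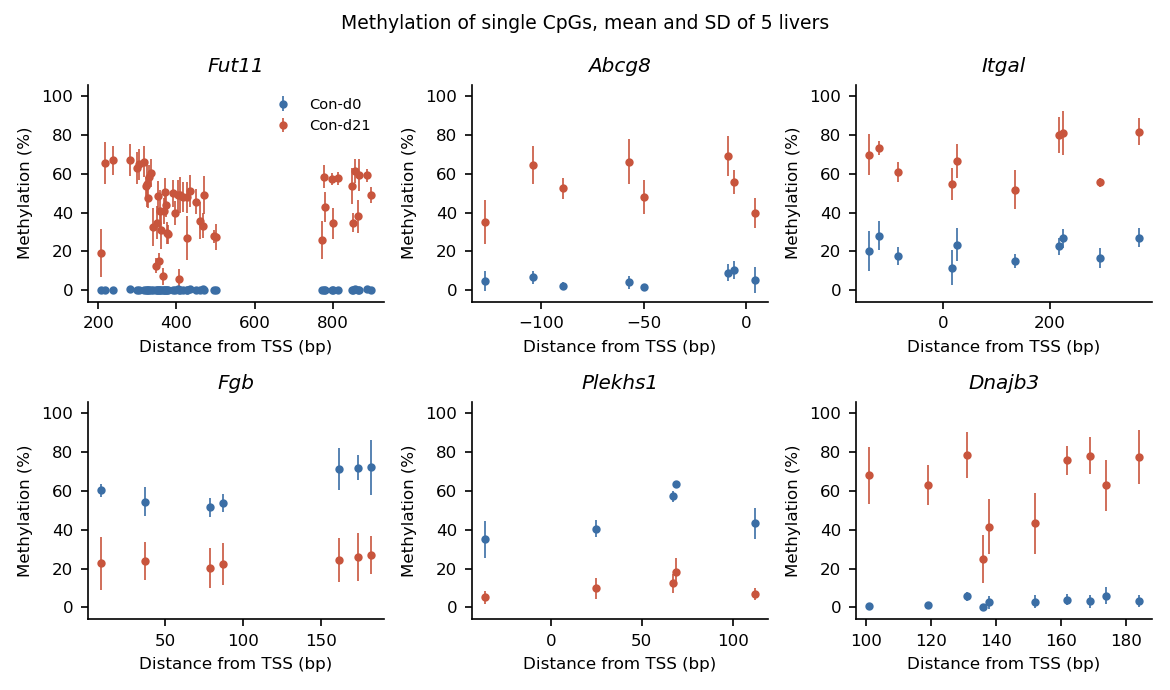
Methylation (%, vertical axis) of each tested CpG against its distance from the TSS in bp (horizontal axis) in 6 promoters, as the mean and SD of 5 Con-d0 (blue) and 5 Con-d21 (red) livers. The means of the ages differ at every CpG drawn, but the Fut11 CpGs at 208, 366 and 406 bases after the TSS were not called DMCs. In Fut11 the d21 means run from 5.67% to 67.03% while the newborn means stay under 1%.

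Promoters of hepatocyte secreted proteins and complement genes fell more often than promoters at large. By contrast, cytochromes P450 rose in 7 of 18 and fell in 1. Ugt, Gst and Sult transferases rose in 2 of 15 and fell in 0. Of the hepatocyte secreted proteins 5 of 35 autosomal members could be tested, and 4 fell and 0 rose, against 3.9% and 19.3% of all promoters. The 4 that fell started at 41.7% to 64.6%, whereas most promoters started under 10% and can hardly fall. Of all promoters at 30 to 70% at birth, 12.1% fell and 31.9% rose. Besides F2 and Fgb these were Ambp, an inhibitor precursor, with 46.6%, 50.3%, 49.2%, 49.7% and 42.5% at birth and 18.6%, 20.1%, 28.2%, 23.2% and 15.8% at d21, and F7, coagulation factor VII, which went from 41.7% ± 1.83 to 17.7% ± 4.86. Of 7 complement genes 3 fell, among them C4b, from 52.7% ± 10.6 to 33.0% ± 3.08, and Serping1, the C1 inhibitor, from 21.9% ± 3.82 to 10.002% ± 2.45. Albumin and transthyretin, which define hepatocytes, were among the genes without a tested promoter.

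Among metabolic genes, 7 of 21 promoters of amino acid breakdown and the urea cycle fell (33.3%) and 1 rose (4.76%). Of all promoters 3.9% fell and 19.3% rose. Agxt, which detoxifies glyoxylate, went from 58.4% ± 8.33 to 26.0% ± 5.91, Prodh2, which breaks down hydroxyproline, from 50.6% ± 8.35 to 18.4% ± 7.66, and Gnmt, which consumes S-adenosylmethionine, from 24.8% ± 2.54 to 10.8% ± 1.29. Of 6 gluconeogenesis and sugar genes 3 fell: Fbp1, Pck1 and Gcgr. Pck1, the rate-setting enzyme of gluconeogenesis, stood at 55.6%, 64.0%, 56.1%, 52.6% and 60.0% at birth and at 27.3%, 19.8%, 23.5%, 24.2% and 31.0% at d21 (adjusted p = 9.45e-05). Gcgr, the glucagon receptor, moved only from 0.947% ± 0.430 to 0.126% ± 0.186. Of 15 fatty acid oxidation and ketone body promoters 5 fell and 0 rose, each by under 5 points. The furthest of them, Cpt1a, the carnitine palmitoyltransferase of the outer mitochondrial membrane, had 15.3% in newborn replicate 3 against 3.02% to 6.11% in the other newborn livers, and lost its call in 6 of the alternatives, among them without Con-d21 replicate 1 or 5, at an adjusted p of up to 0.499 by limma.

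Falls outnumbered rises among bile acid and transporter genes. Of 9 tested, 5 fell (55.6%, beside 3.9% of all promoters), Hsd3b7, Klb and Abcc6 by the most. The 2 that rose (22.2%) lie near the 19.3% of all promoters. Only 1 of them rose by 10 points or more, Abcg8, whose window need not be the promoter that liver uses. Klb, the FGF15 co-receptor that restrains bile acid synthesis, stood at 50.3%, 50.2%, 59.1%, 49.5% and 51.5% at birth and at 22.9%, 16.9%, 15.3%, 16.2% and 22.7% at d21 (20 CpGs, adjusted p = 4.29e-05). Abcc6 went from 35.8% ± 8.78 to 7.89% ± 4.68. Of 16 liver transcription factors 4 fell (25%) and 1 rose (6.25%). Hnf4a, a master regulator of hepatocytes, had 15%, 51.1%, 36.0%, 48.3% and 58.3% in newborn livers and 20%, 18.6%, 16.5%, 21.7% and 17.1% at d21 (5 CpGs, 50 to 120 reads, adjusted p = 0.0258). Its newborn livers spread widely, the lowest lay below every d21 liver, and the call was lost in 8 of the alternatives, among them without Con-d0 replicate 2, 4 or 5 and without Con-d21 replicate 3 or 5, at an adjusted p of up to 0.0629 by limma. Foxa3, a pioneer factor of liver, went from 5.27% ± 0.904 to 1.91% ± 0.457.

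Fat synthesis promoters moved little: 1 of 15 fell (6.67%) and 0 rose, where 3.9% of all promoters fell and 19.3% rose. Of 19 peroxisome promoters 1 fell (5.26%) and 0 rose. Both shares of falls lie near that of all promoters, and the median levels at birth were 0.683% and 0.164%. Of all promoters under 10% at birth 12.3% rose and 2.89% fell. Of 9 promoters of iron, copper, haem and retinol handling 1 rose and 1 fell (11.1% each). The rise was that of Slc40a1, the iron exporter ferroportin, from 1.17% ± 0.839 to 3.72% ± 0.612, and the fall that of Alas1, which starts haem synthesis, from 2.64% ± 0.481 to 1.30% ± 0.358. The Alas1 call was lost within 500 bp of the TSS and in the fit blocked on replicate, at an adjusted p of up to 0.846 by limma. In the growth hormone and IGF axis 2 of 12 rose (16.7%, near the 19.3% of all promoters) and 0 fell. Igf1r, the IGF1 receptor, went from 0.0725% ± 0.0457 to 0.579% ± 0.0478 over 84 CpGs, a change that lay beyond the replicate spread at a level below 1%.

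Blood cell promoters moved the other way. Rises and falls numbered 7 and 0 of 16 haematopoietic progenitor and pan-leukocyte genes, 4 and 0 of 5 neutrophil genes, 9 and 0 of 14 erythroid genes, 6 and 0 of 8 megakaryocyte genes, 2 and 0 of 4 B cell genes, and 6 and 0 of 9 T and NK cell genes, where 19.3% of all promoters rose. The share of rises depends on the level at birth, to which the lists were not matched. Of all promoters under 10% at birth 12.3% rose, of those at 10 to 30% 25.2%, and of those at 30 to 70% 31.9%. No promoter of the mast cell list could be tested. Cd48, a pan-leukocyte adhesion receptor, stood at 23.3%, 35.1%, 30.9%, 31.0% and 22.4% at birth and at 78.4%, 64.4%, 68.8%, 71.4% and 78.0% at d21 (adjusted p = 3.21e-05). Lyl1, a transcription factor of blood progenitors, stood at 0.901%, 0.962%, 0.781%, 3.53% and 1.91% and then at 36.4%, 18.9%, 21.01%, 32.2% and 39.7%. Vav1, a signalling protein of leukocytes, went from 14.0% ± 2.70 to 37.0% ± 4.26. The Lyl1 window lies inside the annotated span of Nfix.

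Of the neutrophil genes, Csf3r, the G-CSF receptor, went from 19.8% ± 4.65 to 53.6% ± 4.14, and Cyba, a subunit of the phagocyte oxidase, from 0.653% ± 0.150 to 18.2% ± 5.81 over 30 CpGs. Cebpe, a factor of granulocyte maturation, went from 67.6% ± 3.37 to 87.4% ± 2.71. The starting levels of these 3 promoters thus differed from near 0 to over 60%. Of the erythroid genes, Ermap, a red cell membrane protein, stood at 46.3%, 43.7%, 46.6%, 45.7% and 49.2% and then at 86.5%, 84.0%, 92.6%, 82.1% and 86.1% (adjusted p = 1.61e-05). Rhd, the Rhesus blood group antigen, went from 40.6% ± 6.84 to 73.8% ± 1.81, and Epor, the erythropoietin receptor, from 11.7% ± 3.04 to 38.1% ± 9.37. Klf1, the regulator of red cell genes, had 0% at birth and 0.2% at d21 (4 CpGs, adjusted p = 0.592).

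Of the platelet genes, Itga2b, the integrin alpha IIb subunit, went from 22.1% ± 7.60 to 53.5% ± 6.88 and Pf4, a platelet chemokine, from 22.8% ± 3.97 to 54.0% ± 9.86. Of the T cell genes, Lat, an adaptor of the T cell receptor, stood at 34.8%, 39.2%, 42.4%, 34.1% and 37.5% and then at 75.7%, 81.4%, 78.2%, 82.8% and 81.3%. Of 3 Kupffer cell promoters 1 rose: Adgre1, the macrophage marker F4/80, with 72.7% ± 6.60 and 83.7% ± 3.85 (adjusted p = 0.0385), a call lost in 9 of the alternatives, among them without Con-d0 replicate 1, 2 or 4 and without Con-d21 replicate 2, 3, 4 or 5, at an adjusted p of up to 0.0938 by limma.

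Promoters of other liver cells rose in part, where 19.3% of all promoters rose and 3.9% fell. Of 17 endothelial promoters 8 rose (47.1%) and 1 fell (5.88%). Tie1, an endothelial receptor tyrosine kinase, went from 29.8% ± 8.33 to 67.1% ± 7.06, Plvap, a protein of endothelial diaphragms, from 12.5% ± 4.06 to 38.5% ± 6.53, and Eng, a TGF-beta co-receptor, from 19.3% ± 5.94 to 44.2% ± 3.99. Notch4 was the one that fell, from 55.03% ± 2.38 to 37.0% ± 6.27, a call lost with a minimum of 5 reads (limma adjusted p = 0.0775). Of 17 stellate cell and matrix promoters 6 rose (35.3%) and 1 fell (5.88%). Tagln, an actin-binding protein of contractile cells, went from 29.1% ± 2.96 to 61.1% ± 6.97. Pdgfrb, the PDGF receptor beta, went from 6.49% ± 1.80 to 30.9% ± 6.06. Of 10 cholangiocyte promoters 1 rose, Cldn4, a tight junction protein, from 41.9% ± 4.37 to 62.7% ± 4.08, and 1 fell.

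**Figure D5:**
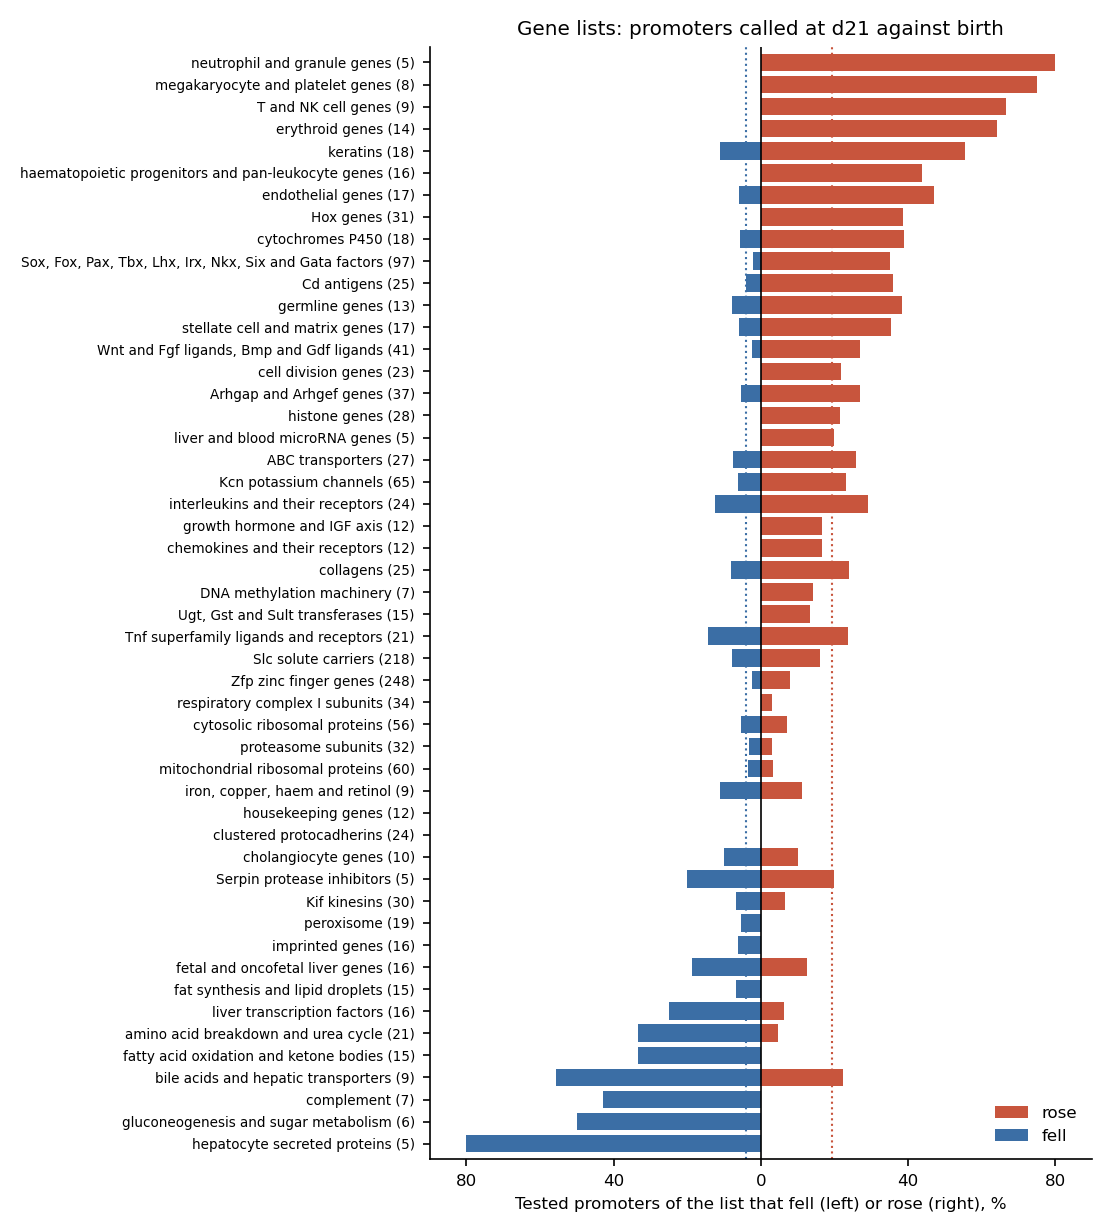
Share (%) of the tested promoters of each gene list that rose (red, to the right of 0) or fell (blue, to the left of 0) from birth to d21, with the number tested in brackets, for lists with at least 5 tested promoters. Dotted lines mark the 19.3% and 3.9% of all promoters. The blood cell lists lie at or near the top, and those of hepatocyte secreted proteins, gluconeogenesis and complement at the bottom.

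Of 23 cell division promoters 5 rose (21.7%, near the 19.3% of all promoters) and 0 fell, all by under 10 points. Plk1, a mitotic kinase, went from 0.488% ± 0.290 to 8.18% ± 1.46, and Ccnd1, cyclin D1, from 0.538% ± 0.261 to 2.34% ± 0.408. Of 16 fetal and oncofetal liver genes 2 rose (12.5%) and 3 fell (18.75%), beside 19.3% and 3.9% of all promoters. Igf2bp1, an RNA-binding protein of fetal tissue, went from 0.175% ± 0.0548 to 1.63% ± 0.127 over 77 CpGs. Lin28a, which blocks let-7 maturation, went from 3.09% ± 1.06 to 0.270% ± 0.604, and Plagl1, a growth regulator that is also imprinted, from 16.7% ± 5.98 to 6.29% ± 2.18. The Plagl1 call was lost within 500 bp of the TSS (limma adjusted p = 0.190), that of Ccnd1 likewise (0.635), and that of Lin28a with a minimum of 5 reads (0.371). Plagl1 was the only call among the 16 imprinted genes tested, and none of 12 housekeeping promoters was called, Actb standing at 1.06% ± 0.180 and 1.30% ± 0.275 (adjusted p = 0.465). Of 13 germline promoters, whose median was 80.3% at birth, 5 rose (38.5%) and 1 fell (7.69%). Of all promoters at 70% or more at birth, 53.6% rose. Brdt went from 82.0% ± 4.35 to 93.1% ± 1.35 and Ddx4 from 80.3% ± 3.07 to 68.9% ± 3.11. Of 7 genes of the DNA methylation machinery 1 rose (14.3%, beside 19.3% of all promoters): Mbd4, a glycosylase, from 0.609% ± 0.593 to 5.98% ± 1.04.

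Gene families differed in how often they moved, where 19.3% of all promoters rose and 3.9% fell. Hox promoters rose in 12 of 31 (38.7%) and fell in 0, all by under 10 points. Hoxc10 went from 4.39% ± 1.08 to 10.7% ± 1.203 and Hoxb6 from 0.433% ± 0.498 to 5.45% ± 2.38. Developmental factors of the Sox, Fox, Pax, Tbx, Lhx, Irx, Nkx, Gata and related families rose in 34 of 97 (35.1%) and fell in 2. Their median change was 0.491 points. None of 24 clustered protocadherin promoters was called, at a median of 32.7% at birth and 29.7% at d21. Keratins, structural genes of epithelia, stood at a median of 75.0% at birth. They rose in 10 of 18 (55.6%) and fell in 2 (11.1%), near the 53.6% of rises among all promoters at 70% or more at birth. Zinc finger genes of the Zfp type rose in 20 of 248 and fell in 6, and Zfp574 rose furthest, from 8.10% ± 0.930 to 41.2% ± 2.99.

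Subunits of general cell machinery rose seldom, while their falls lay around the share of all promoters. Rises and falls numbered 4 and 3 of 56 cytosolic ribosomal proteins (7.14% and 5.36%) and 2 and 2 of 60 mitochondrial ribosomal proteins (3.33% each). They numbered 1 and 0 of 34 complex I subunits (2.94% and 0%) and 1 and 1 of 32 proteasome subunits (3.125% each). The median levels of these lists at birth were 0.0829% to 0.125%. Of all promoters under 10% at birth, 12.3% rose and 2.89% fell. At 10 points or more, 1 cytosolic ribosomal promoter fell, 1 proteasome promoter rose and 1 fell, and the other calls in these lists were of under 10 points. Rps10 went from 54.0% ± 3.92 to 21.3% ± 8.30, in a CpG-poor window, and Psmb8, a subunit of the immunoproteasome, from 5.82% ± 1.66 to 25.8% ± 4.90. Solute carriers rose in 35 of 218 and fell in 17, with Slc39a4, a zinc importer, going from 49.0% ± 3.49 to 19.8% ± 7.87. Solute carriers thus rose in 16.1% and fell in 7.8%, where 19.3% and 3.9% of all promoters did. Potassium channels rose in 15 of 65 (23.1%) and fell in 4 (6.15%), and cytochromes P450 rose in 7 of 18 (38.9%) and fell in 1.

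Cytokine genes moved in both directions within 1 family. In the Tnf superfamily 5 of 21 rose (23.8%, near the 19.3% of all promoters) and 3 fell (14.3%, beside 3.9% of all). Tnfsf4, the OX40 ligand, went from 33.8% ± 6.45 to 73.6% ± 7.50 and Tnfsf14 from 19.3% ± 4.55 to 52.5% ± 5.18, whereas Tnfsf15 went from 41.9% ± 3.53 to 12.8% ± 5.45 and Tnfsf13 to near 0. Of 24 interleukin and receptor promoters 7 rose (29.2%) and 3 fell (12.5%). Il17re went from 16.7% ± 4.08 to 55.01% ± 6.19 and Il22ra1, a receptor chain of epithelial cells, from 39.9% ± 3.26 to 26.1% ± 3.99. Among 41 Wnt, Fgf, Bmp and Gdf ligands 11 rose (26.8%) and 1 fell (2.44%). Fgf1 went from 12.2% ± 4.92 to 50.9% ± 10.5, and Gdf2, the hepatic ligand BMP9, from 41.9% ± 9.49 to 25.5% ± 3.65. The Gdf2 call was lost without Con-d0 replicate 1 or 2 or Con-d21 replicate 3, at an adjusted p of up to 0.0539 by limma.

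The rising regions with the most DMCs lay in exons, mostly in CpG islands, and not at TSSs. A ranking by the count of DMCs favours stretches dense in tested CpGs. Over all tested CpGs, 0.964% in islands were rising DMCs, against 4.71% outside islands and shores. Joining called bins of 1 direction whose starts lay at most 400 bp apart gave 42450 rising and 4520 falling regions, of which 1016 and 129 held 3 or more bins. The region with the most DMCs lies in Fignl2, a fidgetin-like ATPase gene (chr15:101052201-101054600), where 119 of 128 tested CpGs were rising DMCs and 125 lay in exons. Its livers held 17.4%, 15.9%, 15.7%, 14.8% and 13.7% at birth and 72.7%, 75.3%, 76.2%, 73.0% and 73.7% at d21. Mn1, a transcriptional coregulator, held 76 DMCs of 85 CpGs (chr5:111418401-111421200) and went from 19.3% ± 0.576 to 70.6% ± 4.10. Zfp316 held 74 of 75 (chr5:143254401-143255600) and went from 9.49% ± 0.579 to 64.9% ± 2.19. The Mn1 and Zfp316 CpGs were all exonic. Snx20, a sorting nexin, held 73 of 84 (chr8:88627201-88627800) and went from 1.80% ± 0.713 to 31.2% ± 5.03, and a region over SPATA24 and Prob1 (chr18:35652401-35654200) went from 2.68% ± 0.701 to 32.5% ± 2.72.

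The falling regions with the most DMCs were shorter, and they too lay in island exons. In Rasal3, a Ras GTPase activator of leukocytes (chr17:32396401-32396800), 34 of 35 CpGs were falling DMCs. Its livers held 60.5%, 61.5%, 48.8%, 53.4% and 59.2% at birth and 8.80%, 12.03%, 14.5%, 10.9% and 5.97% at d21. The region also overlaps the annotated gene CT485616.1, and its middle tested CpG lies at position -229 from the TSS of that gene. The promoter of Rasal3 rose, from 57.8% ± 2.89 to 85.8% ± 3.97 (10 CpGs, limma adjusted p = 8.23e-05). Both directions thus occurred at Rasal3. C530008M17Rik (chr5:76857601-76858400) went from 39.5% ± 2.38 to 13.7% ± 2.39, 2700081O15Rik (chr19:7422801-7423600) from 68.6% ± 2.52 to 30.8% ± 2.29, and Shank3, a synaptic scaffold gene (chr15:89547801-89548200), from 62.9% ± 6.33 to 21.7% ± 3.35. In Runx1, a factor of blood stem cells, 21 of 24 CpGs far from the TSS were falling DMCs (chr16:92605801-92606600), from 54.7% ± 6.55 to 17.7% ± 6.85. Every d21 liver lay beyond every newborn liver in these 10 regions, which were chosen by that contrast.

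Per gene, 4755 of 15725 protein-coding genes with a tested CpG held a DMC between start and end. Of these 3279 held rising DMCs alone, 837 falling ones alone and 639 both. Fignl2 held 136 rising DMCs among 190 CpGs, Zfp316 96 among 150, Nfix, a nuclear factor I gene, 99 among 275, and Gse1 104 rising and 35 falling among 698. Gm20388 came first in both directions, with 311 and 75, as an annotated readthrough of 4435 kb with 5385 tested CpGs. Rasal3 held 34 falling DMCs among 42 CpGs, Agap2, an Arf GTPase activator, 36 among 68 and Runx3, a factor of lymphocytes, 36 among 139, the last pair with 0 rising.

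Gene bodies rose at the median whichever way the promoter went. Beyond 2 kb from the TSS, the median body change was 6.69 points over 6230 protein-coding genes, 6.84 for 223 genes whose promoter rose by 10 points or more and 8.42 for 65 whose promoter fell by as much. Of those 65, 54 had a higher body mean at d21 and 11 a lower one. A falling DMC in the body was held by 24.6% of the genes with a falling promoter, 16.6% of those with a rising one and 14.5% of all.

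Islands that were unmethylated at birth seldom gained methylation. Of 35263 island bins under 5% at d0, 73 (0.207%) reached 30% or more at d21, 25 of them within 1 kb of a TSS and 48 farther away. The examples that follow were chosen after their values were seen. At Lrfn4, a synaptic adhesion gene, the promoter window of 41 CpGs went from 0.221% ± 0.167 to 44.3% ± 5.23 (limma adjusted p = 1.53e-08). The island bins that gained there also overlap the annotated span of Pcx. Akap5, a kinase anchor gene, went from 0.909% ± 0.342 to 34.9% ± 4.47 over 36 CpGs. Thpo, the gene of thrombopoietin, which hepatocytes make, went from 3.54% ± 1.41 to 36.2% ± 5.67 over 18 CpGs. The island bin that gained there also overlaps the annotated span of Chrd.

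Some of the islands that gained lie at developmental genes, away from the TSS. A bin whose nearest TSS is that of Ihh, Indian hedgehog (chr1:74948001-74948200), went from 3.44% ± 1.41 to 45.9% ± 3.90 over 12 CpGs. A bin nearest the TSS of Foxa1, a pioneer factor of endoderm (chr12:57550401-57550600), went from 4.12% ± 1.81 to 42.0% ± 9.68. A bin nearest that of Gata4, a factor of liver and heart development (chr14:63240801-63241000), went from 4.82% ± 3.13 to 52.9% ± 3.98 over 3 CpGs. The highest newborn liver in these 3 bins held 10% and the lowest d21 liver 30.7%. Other gains of this kind were a stretch of 19 CpGs on chr7:130692401-130693200, from 2.15% ± 0.869 to 58.2% ± 9.09, and a stretch of 26 CpGs nearest Adra1b, the alpha-1B adrenoceptor (chr11:43836401-43836800), from 1.58% ± 1.02 to 42.3% ± 6.69. In the other direction, 17 island bins went from 50% or more to under 20%.

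Short motifs were counted on both strands of bins outside islands and shores, in 12784 bins that rose and 3455 that fell by 20 points or more, beside all 139319 tested. The HNF4A motif CAAAGTCCA stood in 0.117% of rising bins, 1.01% of falling bins and 0.220% of all. The FOXA motif TGTTTAC stood in 1.81%, 5.44% and 2.21%, and the nuclear factor I motif TTGGCA in 8.45%, 16.4% and 9.31%. The HNF1 motif GTTAATNAT stood in 0.297%, 1.07% and 0.342%, and the nuclear receptor motif TCAAAGGTC in 0.203%, 0.579% and 0.168%. These letters, named after factors of hepatocytes, were thus seen more often in falling bins than in rising ones. In the order rising, falling and all, the PU.1 motif GAGGAAGT stood in 3.25%, 0.724% and 1.21%, and the RUNX motif TGTGGTT in 6.24%, 3.73% and 3.52%. The GATA motif AGATAA stood in 10.02%, 8.71% and 7.75%, and the red cell motif CCACACCC of KLF1 in 2.56%, 1.77% and 2.10%. The C/EBP motif TTGCNNAA stood in 8.35%, 10.2% and 9.34%, the E-box CAGCTG in 14.1%, 17.0% and 11.5%, and the AP-1 motif TGANTCA in 5.90%, 6.34% and 4.78%. The GC-box GGGCGG stood in 6.11%, 5.99% and 5.91%, the ETS motif CCGGAAGT, which overlaps the PU.1 letters in part, in 1.91%, 1.19% and 1.38%, and the NRF1 motif GCGCATGCG in 0.0626%, 0.0289% and 0.0790%. A match is a run of letters and no measured binding.

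The same age contrast in AME offspring, which share no library with the controls, was tested in the same way. Of 15671 promoters tested there, 3049 rose (19.5%) and 497 fell (3.17%). Of the 2877 control rises tested in both, 2183 also rose in AME and 0 fell, which is 75.9% of the control rises and 72.7% of the 3004 AME rises tested in both. Of the 608 control falls, 326 also fell and 1 rose, which is 53.6% of the control falls and 66.3% of the 492 AME falls. Of control changes of 10 points or more, 875 of 966 rises rose and 161 of 195 falls fell in AME, with 0 called the other way. Fut11 went from 0.0488% to 49.6% in AME, Abcg8 from 4.40% to 51.7%, F2 from 60.1% to 26.7% and Tnfsf13 from 35.0% to 1.95%. Without AME-d0 replicates 1 and 3, 2458 promoters were called in AME in place of 3546, and without AME-d21 replicate 4, 3313.

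No promoter's age difference was called different between the maternal environments. The interaction term of limma over all 4 groups passed the adjusted p at 0 of 15392 promoters (0%), the lowest adjusted p being 0.601, and 776 (5.04%) had an unadjusted p under 0.05. This does not show that the differences were the same. The promoter of Notch4, with a called fall in control offspring, had means of 44.4% and 41.7% in AME (adjusted p = 0.768), and its interaction was among those not called.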

How the data were processed

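RRBS was read in 20 mouse livers, of which 10 control libraries carry this report. Per CpG the files hold 2 counts deposited by the authors, of methylated and of unmethylated reads, without normalization, and the percent methylation deposited by the authors is 100 times the methylated count over the total. Tools listed in the submitters' processing notes are Trim Galore, FastQC, BWA and Bismark, with mm10 as the build. Strand merging and removal of duplicates are not given in the sources used here, and duplicate reads would make intervals too narrow. The median autosomal CpG had 9 to 13 reads per control library, so 1 read at the minimum of 10 is worth 10 percentage points, and counting error alone is large at single CpGs.

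Autosomal positions that are a CG in GRCm38 with at least 10 reads in all 10 libraries were kept. Genes came from GENCODE M21, and the sequences from RefSeq GRCm38.p6. CpG islands were called from GC content (55% or more), the observed over expected CpG ratio (0.65 or more) and length (500 bp). Single CpGs were tested with a quasi-binomial F test, its overdispersion floored at 1, at the thresholds the study gives for a DMC (p = 0.001, taken as unadjusted, and 10 points). For bins and promoters, limma (3.58.1, under R 4.3.3) was fitted to the log2 ratio of summed methylated to unmethylated counts, 1 read being added to both, with Benjamini-Hochberg adjustment. Means were compared by exact permutation. Percent values of a window are summed methylated over summed total reads. Python 3.11.15, numpy 2.4.6, scipy 1.17.1 and pandas 2.3.3 were used, and scripts were tested on simulated data. Alternatives were other coverage minimums, tests, windows and read additions, a replicate block and each library left out in turn.

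Named promoters are the 15 largest rises and 15 largest falls of protein-coding genes that pass the adjusted p with ages that do not overlap, and up to 4 called members of each list with the largest difference. Named regions and genes are the 5 with the most DMCs in each direction. The members and lists were chosen with earlier results of these data known. The text gives part of what the rule names, and the genes described as chosen after their values were seen, Klf1 as a defining marker, and Rasal3 as the host of a named region lie outside it. Each library is 1 animal.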

Additional observations from a re-analysis of the deposited data

Results flagged for a closer look

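In 19 of 232 groups of 5 libraries (8.19%) 1 library lay farther from the rest than Dixon's 95% critical value of 0.71 allows, where chance gives about 1 in 20. Con-d0 replicate 5 was the high library in 8 of them: 37.6% over all tested CpGs, 40.5% in shores, 70.03% outside islands and shores, 22.6% in exons, 42.6% in introns, 50.7% between genes, 72.1% in repeats and 31.3% outside repeats. It did not stand apart so in CpG islands, at 5.81% against 5.69% to 5.78%. These 8 contexts share CpGs and are not separate observations.

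Con-d0 replicate 3 stood apart at the promoters of Abcg8 (2.10%, the others 5.71% to 6.86%), Klb (59.1%, the others 49.5% to 51.5%), Cpt1a (15.3%, the others 3.02% to 6.11%), Plk1 (0.987%, the others 0.226% to 0.441%) and Slc40a1 (2.62%, the others 0.444% to 0.952%). Con-d0 replicate 1 stood apart at Epor with 17.0% and at Notch4 with 50.9%, replicate 2 at F7 with 38.5%, and replicate 4 at Gm42417 with 49.1%. At d21, replicate 4 stood apart at Lin28a with 1.35%, where the other livers had 0 methylated reads, and in the falling region of 2700081O15Rik with 34.7%. In each of these promoters the called direction was that of the other livers too, as none lost its call without the library in question.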

How the results depend on the processing

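No result reversed its direction under any alternative run. The count of DMCs, 28360, became 52262 at an adjusted p under 0.05, 18670 with at least 20 reads, 104595 by a likelihood-ratio test without overdispersion and 72575 by limma, and 18440 to 20977 with 1 library left out. The tests differ in how they take up the spread between animals. The count of promoters, 3887, became 2335 within 500 bp of the TSS, 1722 with at least 10 CpGs and 1462 with at least 10 points, and 3391 to 3650 with 1 library left out. The 60502 called bins stayed within 1.5 times their number (53291 to 80926, and 54771 to 62865 with 1 library left out), as did the AME promoters (3058 to 3313 with 1 library left out). The 9 mean differences by context kept direction and call, that over all tested CpGs lying between 4.2003 and 4.597 points. The interaction count of 0 became 1 without AME-d21 replicate 3 and was 0 or 1 with 1 library left out.

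Replicate numbers did not pair the livers of the 2 ages (correlations of deviations -0.0014 to 0.00588, the own number highest in 1 of 5), so they are only names. With the replicate number as a block, limma called 72602 CpGs, 58591 bins, 3319 promoters, 3132 AME promoters and 1 interaction.

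For named promoters and list members 1714 alternative values stayed on their side of the threshold and 33, in 10 genes, lost it, none of them among the 15 largest rises or falls: Adgre1, Hnf4a, Cpt1a, Gdf2, Alas1, Ccnd1, Cyp4f40, Lin28a, Notch4 and Plagl1. The cause was not tested. The number of called members moved by over 1.5 times in 178 of the alternative values, in 47 lists, most often with at least 10 CpGs (37 lists) and within 500 bp of the TSS (24 lists), where fewer members are tested. Of the 4 hepatocyte secreted calls, 2 were left within 500 bp and 0 with at least 10 CpGs. CpGs under 10 reads in any library, sex chromosomes and promoters with fewer than 3 such CpGs were not analysed here.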
